A study of Mus musculus with 20 samples.

Results

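A set of 6 genes that stand for the fasting state of the liver was followed through 20 mouse livers: Pdk4, Ppargc1a, Ppara, Bdh1, Fgf21 and Angptl4. They are 6 of the 19057 genes that the array's platform annotation names by 1 symbol, and all 6 had a probe bright enough to be analysed, as did 9262 genes in all. The members are every probe whose annotation symbol is one of these names, which gave 9 probes, of which 7 passed the filter on dim probes. The genes were picked with differences between these same groups already known. Each adjusted p-value below therefore places a difference among all probes of the array, as a description, and is no independent test of the gene.

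A liver between meals burns fatty acids. The nuclear receptor PPAR alpha (Ppara), bound by fatty acids, switches on the genes of fatty acid oxidation and ketone synthesis, and among its best known targets are Pdk4, Fgf21 and Angptl4. The kinase PDK4 inhibits pyruvate dehydrogenase and so spares glucose carbon, while PGC-1 alpha (Ppargc1a) is a coactivator that raises gluconeogenic and mitochondrial genes in fasting. Bdh1 encodes the mitochondrial dehydrogenase that interconverts acetoacetate and beta-hydroxybutyrate, the last step before ketone bodies leave the cell. FGF21 and ANGPTL4 are secreted: the first is a fasting hormone, the second an inhibitor of lipoprotein lipase.

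The livers came from female mice of 4 groups, 5 mice each, on 1 Illumina Mouse WG-6 v2.0 array per mouse. In the order used below, the groups are B6.Pdss2(kd/kd) mutants given CoQ10 (about 400 mg per kg per day, 153 to 156 days old), the same mutants fed probucol (about 95 mg per kg per day, as 1% of the diet, 140 to 145 days), the same mutants on plain chow (129 to 143 days) and wild-type B6 mice on plain chow (215 to 217 days). All 3 mutant groups are homozygous for a missense allele of Pdss2, an enzyme of coenzyme Q synthesis, on a B6 background in the 13th backcross generation. The question put to the arrays was how this genotype and lifelong feeding of either compound relate to liver transcripts.

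Genotype and age cannot be told apart in any comparison with wild type, and in the comparisons of CoQ10 with the other mutants age differs too. Feeding state and time of day at collection are not given in the sources used here. For 10 livers the treatment label and the prefix of the array name disagree, probucol against untreated and the reverse. The treatment label was used, and every statement on these 2 groups holds for livers as so labelled. The labels also give urine albumin, at 0.84 to 1.86 mg per 24 h in mice labelled probucol and 13.52 to 57.34 in those labelled untreated. CoQ10-treated mice have no albumin value. Nephritis scores were 0 to 3 (median 0) in mice labelled probucol and 2 to 4 (median 3) in those labelled untreated. They were 2, 0, 0, 0 and 2 in CoQ10-treated mutants and 0, 0, 1, 0 and 0 in wild type. Kidney disease thus differs as well between CoQ10-treated and untreated mutants, and its part was not tested. The arrays detected 12268 to 15003 of 45281 probes each, with fewest on arrays numbered 1 in their names (12268 to 13587) and most on those numbered 3 (14226 to 15003). The mutated gene itself was not analysed here. All 6 hepatocyte markers were detected, with a summed intensity of 273888 to 298769 under CoQ10, 282986 to 297981 under probucol, 289485 to 303166 in untreated mutants and 294141 to 305210 in wild type. None of 6 muscle markers was detected, and of 5 measured adipocyte markers only Lep was, with Adipoq, Plin1, Retn and Adig not detected. In bulk liver, fewer cells of a type and less RNA per cell cannot be told apart. The comparisons share their groups with one another, so their differences are not independent.

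The 250 bases upstream of the listed transcript starts of Ppargc1a, Fgf21 and Pdk4 are shown because Ppargc1a and Pdk4 differed in opposite directions under CoQ10 and Fgf21 had the tightest link with another member. They are the RefSeq sequences of build GRCm38.p6, 5′ to 3′ on the strand of the gene. Motif matches on either strand are in capitals, and no 2 matches overlap.
Ppargc1a, chr5:51567726-51567975, minus strand: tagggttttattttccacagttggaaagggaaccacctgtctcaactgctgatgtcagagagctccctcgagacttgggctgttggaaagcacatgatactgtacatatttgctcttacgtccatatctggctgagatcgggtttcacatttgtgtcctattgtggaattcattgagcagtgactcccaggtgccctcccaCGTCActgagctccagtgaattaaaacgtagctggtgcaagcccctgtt
Fgf21, chr7:45615491-45615740, minus strand: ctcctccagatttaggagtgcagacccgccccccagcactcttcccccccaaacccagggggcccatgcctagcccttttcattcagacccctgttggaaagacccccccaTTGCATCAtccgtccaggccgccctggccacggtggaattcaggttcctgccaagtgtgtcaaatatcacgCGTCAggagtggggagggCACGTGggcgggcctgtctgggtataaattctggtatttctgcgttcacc
Pdk4, chr6:5496279-5496528, minus strand: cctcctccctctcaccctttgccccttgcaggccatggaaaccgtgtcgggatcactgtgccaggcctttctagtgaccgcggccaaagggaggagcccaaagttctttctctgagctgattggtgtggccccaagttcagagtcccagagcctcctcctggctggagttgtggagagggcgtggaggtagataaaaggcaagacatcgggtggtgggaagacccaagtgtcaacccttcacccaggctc
The motifs searched were the cyclic AMP response element TGACGTCA and its half-site TGACG, the nuclear receptor half-site AGGTCA, the forkhead site TGTTTAC, the ATF4 composite site TGATGNAA and the E-box CACGTG. The Ppargc1a window holds 1 half-site of the cyclic AMP element, on the minus strand of the gene at position -49, a match found in 17.8% of 32851 RefSeq promoter windows of this length. The Fgf21 window holds the ATF4 composite site at -139 (in 3.45% of windows), the cyclic AMP half-site at -68 and the E-box at -50 (in 6.02%). The Pdk4 window holds none of the 6 motifs, and neither does either window of Bdh1, while that of Ppara holds 1 cyclic AMP half-site at -222. The full palindrome is in 1.55% of windows, the nuclear receptor half-site in 14% and the forkhead site in 3.17%. A match is a string of letters, and no binding was measured here.

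Ppara, the receptor itself, was measured by 1 probe (ILMN_2927172, gene at chromosome 15, 85734910 to 85806851). Levels are given throughout as log2 of the background-corrected, quantile-normalised intensity, replicates 1 to 5 in order. Ppara stood at 6.85, 7.51, 6.90, 7.49 and 5.83 in livers of CoQ10-treated mutants, the last below detection. Probucol-fed mutants had 6.75, 7.08, 7.46, 7.66 and 8.08. Untreated mutants had 6.67, 7.41, 7.91, 8.34 and 8.34, and wild-type livers 6.88, 7.88, 8.11, 8.68 and 7.89. The groups overlapped, and 2 untreated livers and 1 wild-type liver lay within the CoQ10 range. The mean was 6.92 ± 0.68 under CoQ10 and 7.89 ± 0.65 in wild type (SD, n = 5 each), a log2 difference of -0.97 ± 0.36 (SE, limma adjusted p = 0.222). Against untreated mutants (7.73 ± 0.71) the difference was -0.82 ± 0.36 (limma adjusted p = 0.473). This dim probe read lowest on arrays numbered 1, by -0.56 on average from the group means. Within the 4 array numbers the difference of CoQ10 from wild type was -1.78 to -0.53, and that from untreated mutants -1.68 to 0.18, negative in 3 of 4. A fit blocked by array number put the difference from wild type at -1.12 (limma adjusted p = 0.0734), and without background correction it was -0.44.

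**Figure D1:**
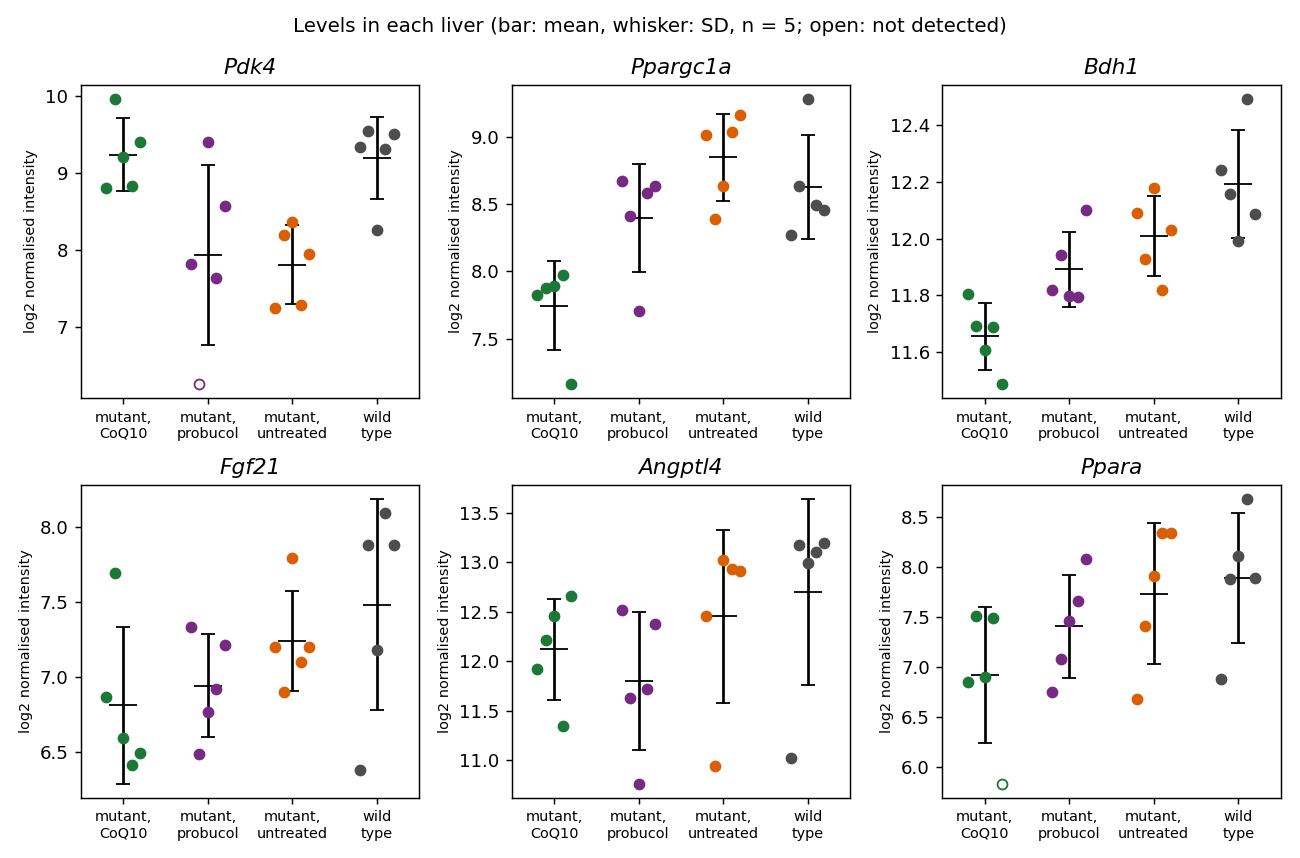
Levels of the 6 genes in each of 20 livers (log2 normalised intensity, vertical axes), with groups along the horizontal axis; points are livers, bars group means and whiskers SD (n = 5). The CoQ10 livers lie below all untreated livers for Ppargc1a and Bdh1 and above all of them for Pdk4, while Angptl4 has 1 liver near 11 in both the untreated and the wild-type group.

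Ppargc1a was the 1 member of 6 called between CoQ10-treated and untreated mutants, where 0.119% of all probes were called. A call is an adjusted p under 0.05 over the 15096 kept probes. Its bright probe (ILMN_2710139, gene at chromosome 5, 51454249 to 52115853) read 7.82, 7.88, 7.89, 7.97 and 7.17 in CoQ10 livers, 8.67, 8.41, 7.70, 8.58 and 8.63 in probucol livers, 9.01, 8.39, 8.63, 9.03 and 9.16 in untreated livers, and 8.27, 8.63, 9.28, 8.49 and 8.45 in wild-type livers. Every CoQ10 liver was below every untreated and every wild-type liver, and 1 probucol liver, replicate 3, fell inside the CoQ10 range. Untreated mutants and wild type overlapped over most of their range. The CoQ10 mean of 7.75 ± 0.33 stood against 8.84 ± 0.32 in untreated mutants (SD, n = 5 each). That is a log2 difference of -1.10 ± 0.21, or 2.14-fold lower with CoQ10 (95% interval -1.54 to -0.66, limma adjusted p = 0.0418). Against wild type (8.63 ± 0.39) it was -0.88 ± 0.21 and missed the threshold (limma adjusted p = 0.0655).

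Each of the 4 array numbers held 1 or 2 livers of a group. Within them the Ppargc1a difference of CoQ10 was -1.59 to -0.63 against untreated mutants and -1.40 to -0.60 against wild type. As these groups did not overlap, the sign there was fixed in advance and adds nothing. Against untreated mutants the difference was smaller under other processing, at -0.65 without background correction and -0.68 with the authors' log2 values. It was -0.65 where the array name prefix set the groups. None of these was called, and a fit blocked by array number had a limma adjusted p of 0.0713. Leaving out any 1 CoQ10 liver, or untreated replicate 1, 3, 4 or 5, put the limma adjusted p between 0.0569 and 0.127, and leaving out untreated replicate 2 put it at 0.0124. Probucol livers (8.40 ± 0.40) lay between the other mutants, -0.45 ± 0.21 from untreated ones (limma adjusted p = 0.808). The difference of CoQ10 from probucol was -0.65 ± 0.21 (limma adjusted p = 0.286). A second Ppargc1a probe was detected in 0 of 20 livers and gives no level.

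Pdk4 lay the other way. Its probe (ILMN_1259322, gene at chromosome 6, 5483351 to 5496278) read 8.80, 9.96, 9.20, 8.83 and 9.40 in CoQ10 livers, and 7.82, 6.27, 9.40, 7.64 and 8.57 in probucol livers, where the 6.27 of replicate 2 was below detection. Untreated livers had 7.25, 8.20, 8.36, 7.29 and 7.95, and wild-type livers 9.33, 9.54, 8.26, 9.31 and 9.51. CoQ10 livers were all above untreated livers and level with wild type, in which 1 liver of 5 dropped into the untreated range. Probucol livers spanned most of the range of all 20.

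The mean of Pdk4 was 9.24 ± 0.47 under CoQ10, against 7.81 ± 0.51 in untreated mutants (SD, n = 5 each). The log2 difference of 1.43 ± 0.41 was 2.69-fold and did not pass the threshold (limma adjusted p = 0.204). Without background correction it was 0.89. Within the 4 array numbers it ran from 1.17 to 1.91, with a sign fixed in advance, as these groups did not overlap. Untreated mutants stood -1.38 ± 0.41 from wild type (9.19 ± 0.53, limma adjusted p = 0.395), with 4 of 5 untreated livers below all wild-type livers. Within array numbers that difference was -2.18 to 0.016, negative in 3 of 4, and without background correction it was -0.87 over all. CoQ10 and wild type differed by 0.05, with a 95% interval from -0.81 to 0.90 and values of -0.63 to 1.69 within array numbers. Probucol (7.94 ± 1.17) stood -1.25 ± 0.41 from wild type (limma adjusted p = 0.181), or -0.73 without background correction. Without probucol replicate 3 this was -1.62 (limma adjusted p = 0.0435), without probucol replicate 2 it was -0.83 (limma adjusted p = 0.296), and without probucol replicates 1, 2 and 4 it was -0.21 (limma adjusted p = 0.939).

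**Figure D2:**
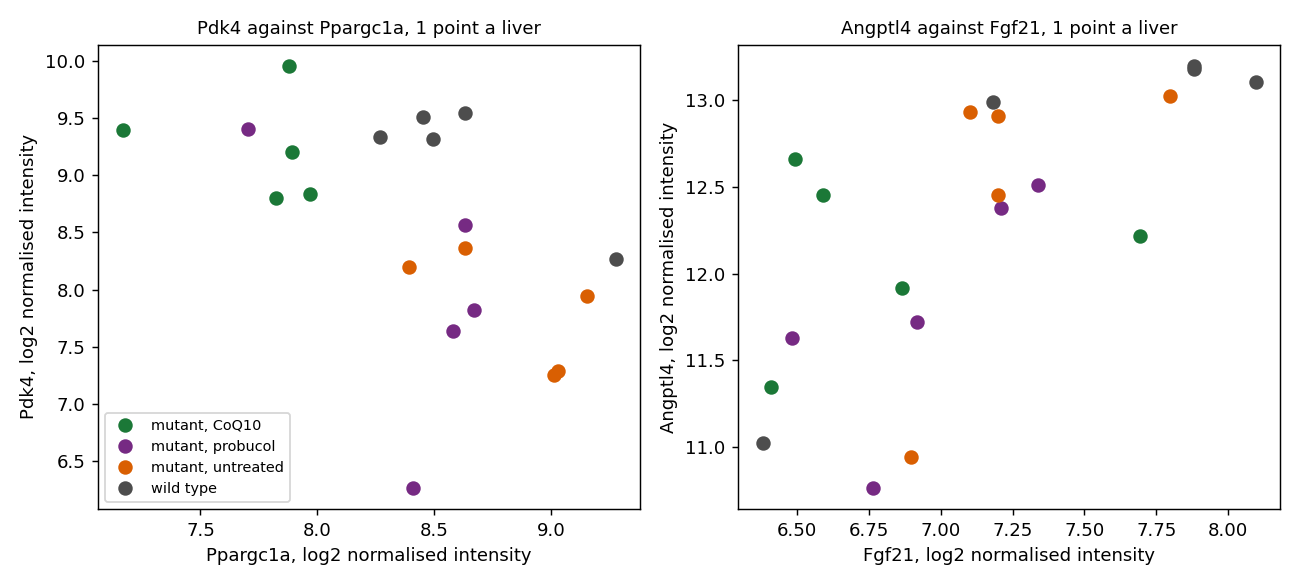
Pdk4 against Ppargc1a (left) and Angptl4 against Fgf21 (right), each axis in log2 normalised intensity and each point 1 liver, coloured by group. CoQ10 livers sit at high Pdk4 and low Ppargc1a with probucol replicate 3 among them, and on the right the 3 livers of lowest Angptl4 belong to 3 different groups.

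Pdk4 and Ppargc1a ran against each other over single livers. Pearson's r between them was -0.55 over the 20 livers and -0.54 once group means were taken off, as a description of livers that share arrays and groups. Probucol replicate 3 shows the pattern inside a group, with the highest Pdk4 of that group (9.40) and its lowest Ppargc1a (7.70). Wild-type replicate 3 shows the reverse, with the lowest Pdk4 (8.26) and the highest Ppargc1a (9.28) of wild type.

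Bdh1, the ketone body enzyme, was the 1 member of 6 called in CoQ10-treated mutants against wild type, where 0.437% of all probes were called. Its bright probe (ILMN_1231553, gene at chromosome 16, 31422297 to 31458901) read 11.80, 11.69, 11.61, 11.69 and 11.49 in CoQ10 livers, 11.82, 11.94, 11.80, 11.80 and 12.10 in probucol livers, 12.09, 11.93, 12.18, 11.82 and 12.03 in untreated livers, and 12.24, 12.16, 11.99, 12.49 and 12.09 in wild-type livers. CoQ10 livers lay below every wild-type and every untreated liver, though the gap to the nearest untreated liver was small. The mean was 11.66 ± 0.12 under CoQ10, against 12.19 ± 0.19 in wild type (SD, n = 5 each). The log2 difference was -0.54 ± 0.11, or 1.45-fold lower with CoQ10 (limma adjusted p = 0.0319), and -0.88 to -0.30 within the 4 array numbers. As these groups did not overlap, the sign within array numbers was fixed in advance and adds nothing.

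Against untreated mutants (12.01 ± 0.14) Bdh1 differed by -0.35 ± 0.11 under CoQ10, which was not called (limma adjusted p = 0.255). Probucol livers (11.89 ± 0.13) stood -0.30 ± 0.11 from wild type (limma adjusted p = 0.243). The call against wild type was lost without wild-type replicate 2, 4 or 5, or CoQ10 replicate 2, 3, 4 or 5 (limma adjusted p of 0.0510 to 0.111), and held without wild-type replicate 1 or 3 or CoQ10 replicate 1 (0.0339 to 0.0475). A second kept probe, ILMN_2708928, was dim and detected in 3 of 5 CoQ10, 3 of 5 probucol, 4 of 5 untreated and 4 of 5 wild-type livers. It gave -0.59 ± 0.53 for CoQ10 against wild type (limma adjusted p = 0.70), and its readings moved with the array number, from -0.70 on number 1 to 0.80 on number 3 around the group means.

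**Figure D3:**
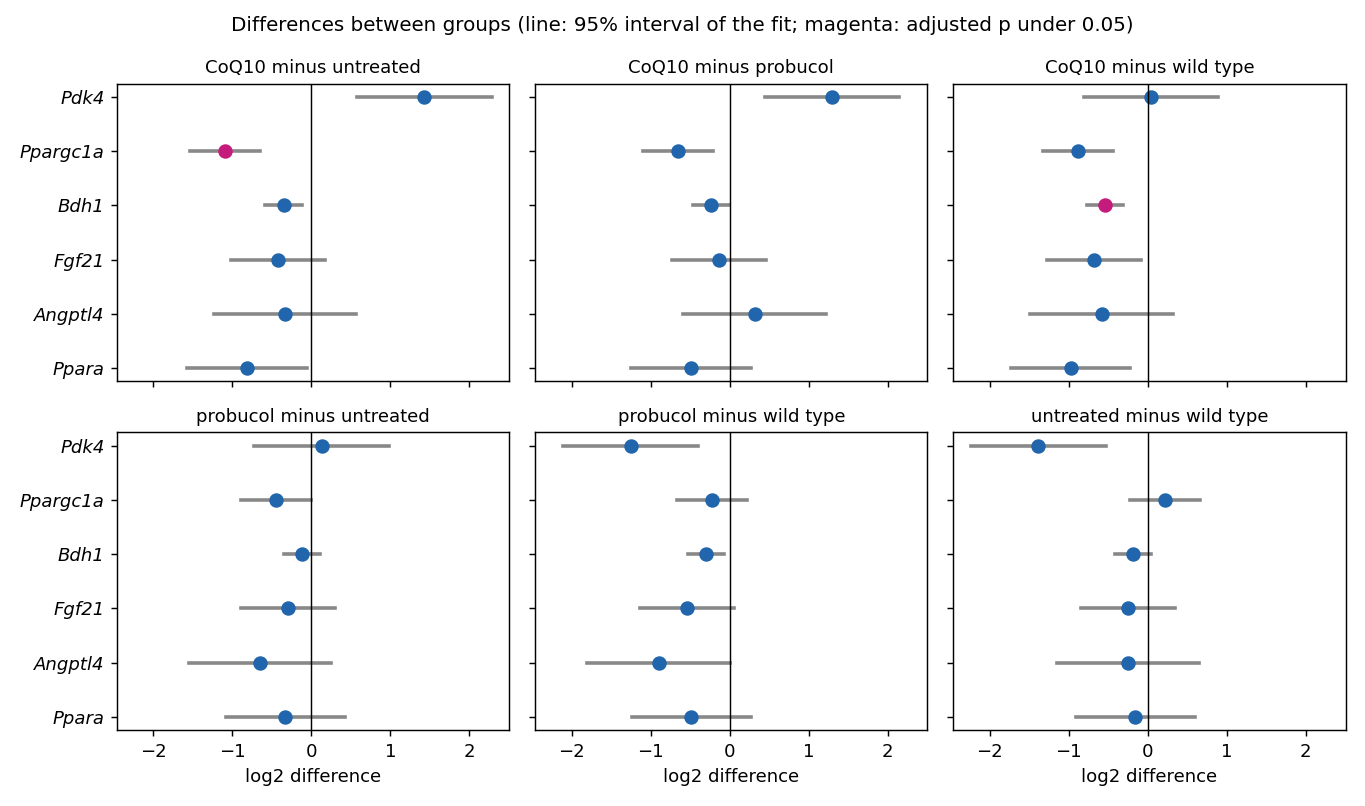
Log2 differences (horizontal axes) of the 6 genes in the 6 pairs of groups, with lines for the 95% interval of the fit and magenta for an adjusted p under 0.05. Only Ppargc1a in CoQ10 minus untreated and Bdh1 in CoQ10 minus wild type are magenta, and Pdk4 is the gene that lies to the right in CoQ10 minus untreated.

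The fasting hormone Fgf21 was dim in all groups (ILMN_2710698, gene at chromosome 7, 45613890 to 45615490). It read 6.87, 7.69, 6.59, 6.41 and 6.49 in CoQ10 livers, 7.34, 6.48, 6.76, 6.92 and 7.21 in probucol livers, 7.20, 6.90, 7.80, 7.10 and 7.20 in untreated livers, and 6.38, 7.88, 7.18, 8.10 and 7.88 in wild-type livers. In all, 4 of 5 CoQ10 livers lay below all untreated livers and replicate 2 near their top. Wild type held both the lowest and the highest liver of all. The CoQ10 mean of 6.81 ± 0.52 stood -0.67 ± 0.29 from the 7.48 ± 0.71 of wild type (SD, n = 5 each), not called (limma adjusted p = 0.30). The difference of CoQ10 from untreated mutants (7.24 ± 0.34) was -0.43 ± 0.29 (limma adjusted p = 0.699). Within array numbers these differences ran from -1.51 to 0.51 and from -0.75 to 0.35.

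Angptl4, the lipase inhibitor, was set apart by single livers more than by groups. Its bright probe (ILMN_2759365, gene at chromosome 17, 33774900 to 33781575) read 11.92, 12.21, 12.45, 11.35 and 12.66 in CoQ10 livers and 12.51, 11.63, 10.76, 11.72 and 12.38 in probucol livers. Untreated livers had 12.45, 10.94, 13.02, 12.93 and 12.91, and wild-type livers 11.02, 13.18, 12.99, 13.10 and 13.20. A single liver of each of the last 2 groups lay far below its 4 companions, which read 12.45 to 13.20. The means were 12.12 ± 0.51 under CoQ10, 11.80 ± 0.70 under probucol, 12.45 ± 0.87 in untreated mutants and 12.70 ± 0.94 in wild type (SD, n = 5 each). No pair of groups was called. The widest difference was probucol against wild type, at -0.90 ± 0.43 (limma adjusted p = 0.41) and -1.86 to 0.41 within array numbers. Leaving out wild-type replicate 1 or untreated replicate 2 moved the untreated minus wild-type difference of -0.25 to -0.67 or 0.13. A second Angptl4 probe was detected in 0 of 20 livers.

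Angptl4 and Fgf21 went together over single livers, with an r of 0.69 over 20 livers and 0.64 after group means were taken off, the closest pair of members by both measures. Wild-type replicate 1 had the lowest Fgf21 (6.38) and the lowest Angptl4 (11.02) of its group, and untreated replicate 2 likewise (6.90 and 10.94). The r nearest to 0 over the 20 livers was that of Pdk4 with Ppara, at -0.013, and after group means were taken off that of Ppargc1a with Bdh1, at 0.0095.

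The same 3 livers recur in other genes. Wild-type replicate 1, untreated replicate 2 and probucol replicate 3 had the lowest Angptl4 of their groups, and each had the lowest Lpin1 of its group, at 7.55, 8.43 and 7.98, against 10.17 to 11.57 in the other 12 livers of those groups. Lpin1 encodes a phosphatidate phosphatase that also acts as a partner of PGC-1 alpha. The CoQ10 livers had 8.32, 7.56, 9.11, 7.82 and 8.78, so they lay with the 3 livers. Ppard, the PPAR delta receptor gene, was the mirror image, at 9.59, 9.50 and 9.57 in the 3 livers, 7.55 to 8.39 in the other 12, and 9.39 to 10.30 under CoQ10. Pck1, the first committed enzyme of gluconeogenesis, was also lowest of its group in each, at 9.78, 9.92 and 8.47. So was the member Ppargc1a, at 8.27, 8.39 and 7.70, of which only the last lay within the CoQ10 range (7.17 to 7.97). Pdk4, Bdh1, Fgf21 and Ppara were not lowest in all 3 livers. These livers were noticed after the values were seen, and no test was made of them.

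**Figure D4:**
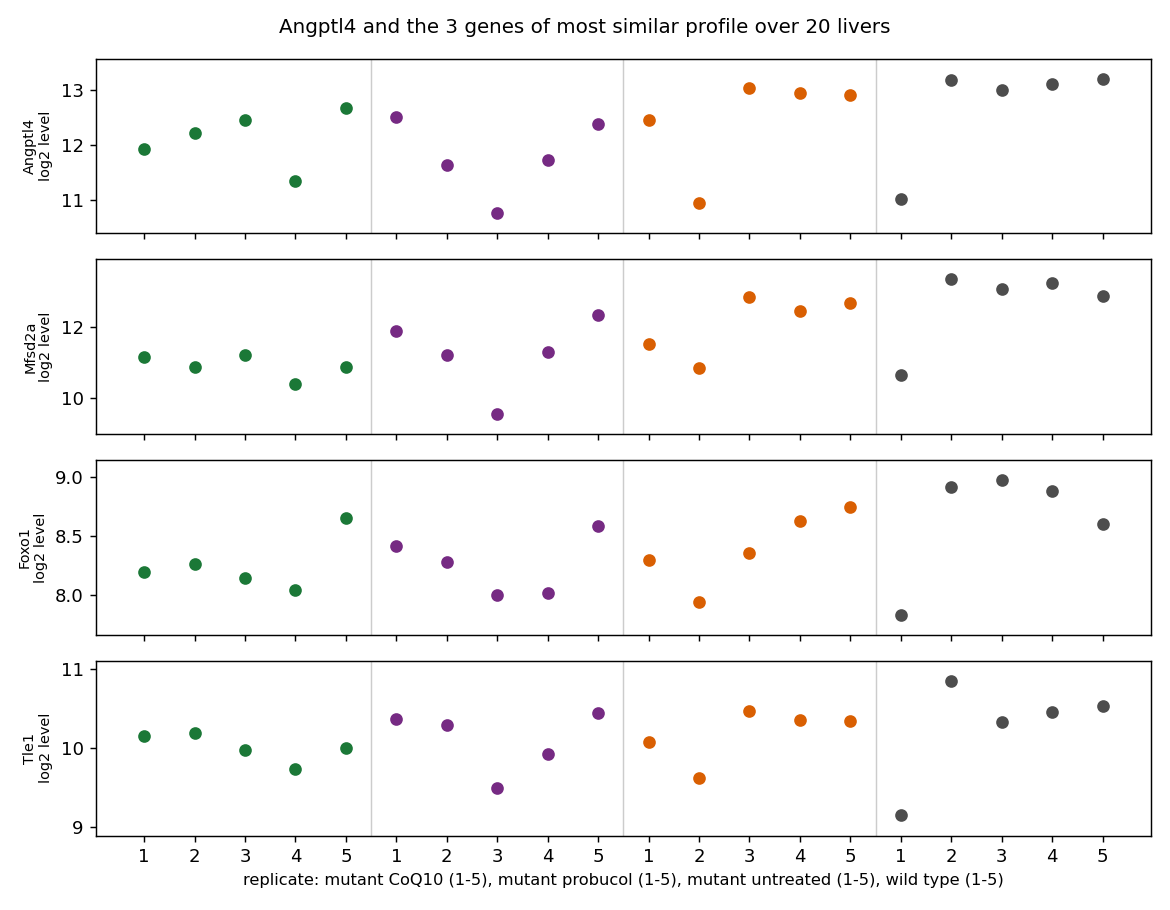
Angptl4 and the 3 genes of most similar profile, Mfsd2a, Foxo1 and Tle1 (log2 normalised intensity, vertical axes), in the 20 livers ordered by group and replicate. Probucol replicate 3, untreated replicate 2 and wild-type replicate 1 are the lowest of their groups in all 4 genes. The 3 genes were picked by likeness to Angptl4 over these same livers, so this is partly built in.

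Among 9261 genes, those closest to Angptl4 over the 20 livers were Mfsd2a, a fasting-induced lysophospholipid transporter (r = 0.87, and 0.92 after group means were taken off), the forkhead factor Foxo1 (0.87 and 0.86) and the corepressor Tle1 (0.86 and 0.90). Mfsd2a, picked by this likeness, read 10.65 in wild-type replicate 1, 10.84 in untreated replicate 2 and 9.54 in probucol replicate 3. Closest to Ppargc1a were the kinase gene Mast3 (0.88, then 0.75), the mitochondrial phosphatase gene Pptc7 (0.87, then 0.76) and Nr1d1 (0.86, then 0.60), which encodes the clock repressor REV-ERB alpha. Closest to Pdk4 were Csad, an enzyme of taurine synthesis (0.85, then 0.81), Trmt9b (0.85, then 0.76) and the peroxisomal thioesterase gene Acot3 (0.83, then 0.70). Closest to Bdh1 were Mon2 (0.89, then 0.67), Phactr4 (0.86, then 0.75) and the alpha-catenin gene Ctnna1 (0.84, then 0.60). Fgf21 went with Gucd1 (0.83, then 0.77), the lipid droplet gene Fitm2 (0.81, then 0.76) and Nrbf2 (0.80, then 0.77). Ppara went with the transporter genes Abcc3 (0.86, then 0.80) and Abcc2 (0.81, then 0.78) and with Sesn2 (0.82, then 0.79). These are the highest of many correlations over livers that share arrays, and carry no p.

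No member was called by limma in the other 4 comparisons. For untreated mutants set against wild type, 0.119% of all probes were called, and an unadjusted p under 0.05 was held by 1 member and 5.5% of all probes. For probucol against untreated mutants 0.0132% of probes were called, and the unadjusted count was 1 member and 6.13% of probes. For probucol against wild type 0.702% of probes were called, and the unadjusted count was 2 members and 12.3% of probes. For CoQ10 against probucol 0.0464% of probes were called, and the unadjusted count was 3 members and 9.96% of probes. For CoQ10 against untreated mutants the unadjusted count was 4 members (9.37% of all probes), and for CoQ10 against wild type 4 (13.3%). Groups did not overlap for 3 members between CoQ10 and untreated mutants (1.68% of all probes) and for 2 between CoQ10 and wild type (4.61%). Since the genes were chosen on these contrasts, nothing is read from these shares.

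The median log2 difference of the 6 genes was -0.39 for CoQ10 against untreated mutants and -0.63 against wild type. It was -0.31 for probucol against untreated, -0.51 for probucol against wild type, -0.18 for CoQ10 against probucol and -0.21 for untreated mutants against wild type, while that of all probes was between -0.010 and 0.010. In order of level, no 2 neighbouring groups differed beyond the threshold for any of the 6 genes.

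The genes around the members were taken as 8 pathway lists with 110 further genes, of which 79 were bright enough. Of the 79, limma called 1 (1.27%) for CoQ10 against untreated mutants, 2 (2.53%) for CoQ10 against wild type and 6 (7.59%) for probucol against wild type. Over all probes these shares were 0.119%, 0.437% and 0.702%. An unadjusted p under 0.05 was held there by 17.7%, 30.4% and 41.8% of the 79, against 9.37%, 13.3% and 12.3% of all probes. Limma called none in the other 3 comparisons. There an unadjusted p under 0.05 was held by 9 genes (11.4%) in the untreated against wild-type livers, 13 (16.5%) in probucol against untreated and 14 (17.7%) in CoQ10 against probucol. Of all probes 5.5%, 6.13% and 9.96% held it. The lists were chosen with earlier results known, so nothing is read from these shares.

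**Figure D5:**
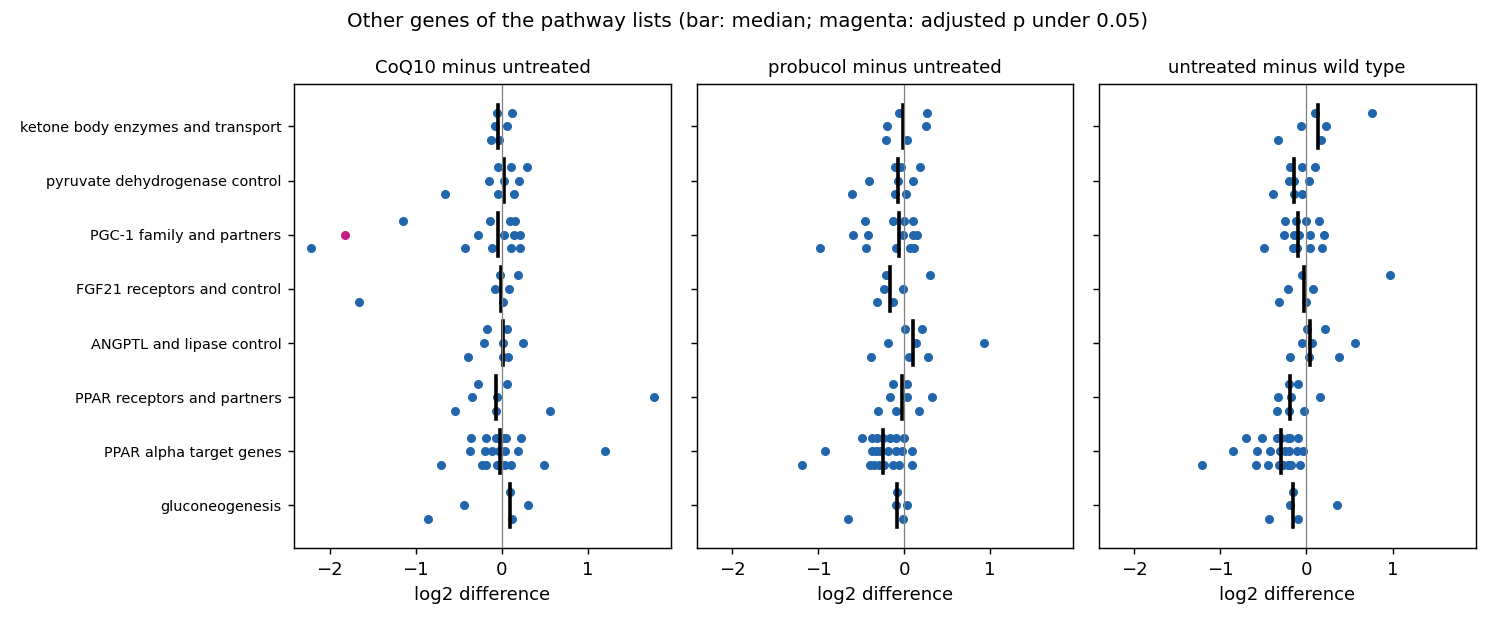
Log2 differences (horizontal axes) of the genes around the members, 1 point a gene, grouped into the 8 pathway lists down the page, in 3 comparisons, with bars for list medians and magenta for an adjusted p under 0.05. The 1 magenta point is Nr1d1 at -1.82 in CoQ10 minus untreated, detected in 1 of 5 CoQ10 livers, and the PPAR alpha targets lie left of 0 in untreated minus wild type without any called.

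Of the 8 pathway lists, only that of the PGC-1 family and its partners held calls in comparisons of CoQ10-treated mutants. Nr1d1 stood at 5.79, 6.21, 5.38, 6.57 and 5.69 in CoQ10 livers, detected in 1 of 5, against 6.98 to 8.38 in untreated livers, median 7.87, and 7.02, 7.85, 8.35, 7.70 and 7.58 in wild type. It fell by 1.82 on the log2 scale against untreated mutants (limma adjusted p = 0.00247) and by 1.77 against wild type (limma adjusted p = 0.00163). With 4 of the 5 CoQ10 readings below detection, these sizes rest on values near background. Ppargc1b, the sister coactivator PGC-1 beta, had 7.54, 7.47, 7.17, 7.72 and 7.86 under CoQ10, against 8.62, 8.14, 8.88, 8.27 and 9.57 in untreated mutants and 8.42, 8.64, 9.25, 8.60 and 8.38 in wild type. CoQ10 livers lay below all livers of both groups. Its difference was -1.11 ± 0.24 against wild type (limma adjusted p = 0.0421) and -1.15 ± 0.24 against untreated mutants (limma adjusted p = 0.0591). Under probucol it had 7.77, 8.29, 7.68, 7.72 and 7.15, which was -0.94 ± 0.24 from wild type (limma adjusted p = 0.0715). From untreated mutants it stood -0.98 under probucol, not called, so its low level was not particular to CoQ10. Of the 14 measured genes of this list, 7 lay lower and 7 higher under CoQ10 than in untreated mutants, with a median of -0.043.

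Lpin1 differed by -2.21 ± 0.68 between CoQ10 and untreated mutants and was not called (limma adjusted p = 0.247). Ppard, in the list of PPAR receptors and partners, differed by 1.77 ± 0.36 and missed the threshold (limma adjusted p = 0.055). In that list limma called 0 of 8 measured genes in any comparison, with 0 to 3 at an unadjusted p under 0.05.

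The PPAR alpha target list, 31 genes other than the members with 23 measured, lay lower in mutants of each kind than in wild type. All 23 lay lower under CoQ10 (median -0.36), under probucol (median -0.51) and without treatment (median -0.30), against 50.9%, 52.1% and 50.6% of all probes. With median scaling or the authors' log2 values it was 22 of 23 under CoQ10 and without treatment. An unadjusted p under 0.05 was held by 8 genes under CoQ10, 17 under probucol and 5 without treatment. Over all probes the shares were 13.3%, 12.3% and 5.5%. Limma called no gene under CoQ10 or without treatment, and called 3 under probucol. Slc22a5, the carnitine transporter, was -1.14 ± 0.21 (limma adjusted p = 0.0132) and Txnip, an inhibitor of thioredoxin, -1.13 ± 0.26 (limma adjusted p = 0.0434). The third was Acot1, a cytosolic thioesterase, at -1.89 ± 0.38 (limma adjusted p = 0.0215). Mean Slc22a5 was 9.27 under probucol, 9.57 in untreated mutants, 9.76 under CoQ10 and 10.42 in wild type. For Txnip these means were 11.12, 12.04, 11.34 and 12.25. Between probucol and untreated mutants limma called none of the 23. Between CoQ10-treated and untreated mutants 14 of 23 lay lower with a median of -0.016, where Pdk4 lay 1.43 higher. The other 9 lay higher, by up to 1.20. Among them was Acot3, at 11.82 to 12.25 in CoQ10 livers against 9.80 to 11.58 in untreated livers. The thioesterase gene Acot4 was another, at 10.33, 10.33, 10.21, 9.96 and 10.10 in CoQ10 livers against 9.77, 9.91, 9.71, 9.38 and 9.72 in untreated livers. The groups did not overlap for Acot4, as for 1.68% of all probes, and its difference of 0.49 ± 0.18 was not called (limma adjusted p = 0.354).

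In pyruvate dehydrogenase control, the list of Pdk4, 9 other genes were measured. Pdp2, a phosphatase that reactivates the enzyme and so acts opposite to PDK4, was 0.80 lower under probucol than in wild type (limma adjusted p = 0.0201). It had 10.68, 10.65, 10.60, 10.36 and 10.29 against 11.27, 11.40, 11.36, 11.45 and 11.10. Untreated mutants (mean 10.92) and CoQ10-treated mutants (10.88) also lay below wild type (11.31), not called. Probucol against untreated mutants was not called either. Pdk2, the kinase most related in role to Pdk4, was at 6.97, 6.55, 7.01, 7.47 and 7.08 under CoQ10, against 7.44, 7.37, 7.74, 7.94 and 7.89 in untreated mutants. The difference of -0.66 ± 0.24 was not called (limma adjusted p = 0.346) and had the sign opposite to that of Pdk4.

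In the list of lipase control around Angptl4, Lpl, the lipase that ANGPTL4 inhibits, was higher under probucol than in wild type. It read 11.42, 11.87, 10.71, 12.51 and 10.13 there, against 10.23, 9.56, 9.82, 9.86 and 9.71 in wild type, a log2 difference of 1.49 ± 0.30 (limma adjusted p = 0.0201). The spread under probucol was wide, and replicate 5 lay within the wild-type range. Mean Lpl in untreated mutants (10.40) and CoQ10-treated mutants (10.19) also lay above wild type (9.84), not called. Probucol stood 0.93 above untreated mutants, not called. The remaining call was Esrrg, an orphan nuclear receptor gene of the PGC-1 list, at -0.95 ± 0.18 under probucol against wild type (limma adjusted p = 0.0179). Esrrg and Acot1 were named after their values were seen.

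The ketone body list held no limma call among 6 measured genes, with 0 to 2 at an unadjusted p under 0.05. Aacs, which activates acetoacetate for lipid synthesis, was 0.77 ± 0.31 higher in untreated mutants than in wild type (limma adjusted p = 0.748), and 0.69 ± 0.31 higher under CoQ10 (limma adjusted p = 0.333). Bdh2, a cytosolic dehydrogenase, differed by 0.19 ± 0.14 between CoQ10 and wild type (limma adjusted p = 0.621), where Bdh1 differed by -0.54. FGF21 receptors and control genes (6 measured) and gluconeogenesis (5 measured) held no limma call in any of the 6 comparisons, with at most 1 gene each at an unadjusted p under 0.05. The immediate-early gene Egr1, in the first of these lists, differed by -1.66 ± 0.57 between CoQ10 and untreated mutants (limma adjusted p = 0.315), with untreated livers from 10.26 to 14.31.

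Markers of other cells differed in summed level between some of these groups and overlapped between others. The summed intensity of 9 Kupffer cell and macrophage markers was 12244 to 16112 under CoQ10, 11943 to 13157 under probucol, 10753 to 13585 in untreated mutants and 9532 to 11156 in wild type. Of these 8 were detected, and Cd5l, in the sum, was not. For 5 measured cholangiocyte markers the sum was 636 to 1142 under CoQ10, 621 to 939 under probucol, 546 to 732 in untreated mutants and 1004 to 1420 in wild type. It takes in Krt19, Krt7 and Epcam, which were not detected. Of the 2 detected, 1 lay lower (-0.90) and 1 higher (0.78) under probucol than in untreated mutants. For 4 blood cell markers the sum was 19097 to 49876 under CoQ10, 17252 to 39483 under probucol, 22435 to 54131 in untreated mutants and 33004 to 58573 in wild type. All groups overlapped in these blood sums. They also did for 6 sinusoidal endothelium markers, at 13233 to 16086, 11814 to 16278, 13509 to 14169 and 13235 to 15081 in the same order. Sums of 6 stellate cell markers were 14582 to 17074, 11875 to 15058, 15349 to 16511 and 14808 to 16607. There probucol lay below untreated mutants and the other pairs overlapped. These sums take in Kdr, Col1a1 and Hand2, which failed the filter. The part of all these markers in the differences of the 6 genes was not tested.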

How the data were processed

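Liver RNA of 20 mice was measured on 1 array each. The authors deposited linear bead intensities, not background-subtracted or normalised, judging from the values and per the file headers. Beside each they deposited a detection value, a fraction from 0 to 1 that rises with intensity (rank correlation 0.99 to 0.996), so 1 minus it served as detection p. The authors also deposited log2 values that they had normalised by a method not given in the sources used here (column medians 7.81 to 7.82). These served as an alternative.

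With limma 3.58.1 under R 4.3.3, normexp removed background from the intensities, its negative-control parameters being estimated through detection p with an added offset of 16. Quantile normalisation and log2 followed. The offset makes fold changes of dim probes too small. Probes with detection p under 0.05 on 5 or more arrays were kept (15096 of 45281). Probes were named from the platform annotation (1 symbol for 34885, several for 18, none for 10378), and 34807 matched the GRCm38.p6 gene table, which gave the coordinates. Each gene is represented by its kept probe of highest mean, with other member probes named. Promoter sequences are from RefSeq and matched 5 of 6 members. Angptl4 is named only.

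A limma model (lmFit, eBayes) of 4 group means took in all 20 arrays, with Benjamini-Hochberg adjustment over kept probes within each of 6 comparisons and a call under 0.05. The test was checked on simulated data. The members and the pathway and marker lists were chosen with earlier results of these data known. Genes around the members were named by a rule, up to 3 of smallest p a list in the comparisons of untreated mutants with wild type and of either treatment with untreated mutants, plus those called. Alternatives covered background correction, scaling, the authors' values, the offset, the filter, blocks by replicate or array number, the groups in the fit, the label exchange and left-out livers. The number of arrays limits the precision.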

Additional observations from a re-analysis of the deposited data

Results flagged for a closer look

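In 5 of 28 groups of 5 livers, over the 7 kept probes of the 6 genes, 1 liver lay far from the rest. Its gap to the nearest exceeded 0.71 of the range of the group, where chance gives about 1 independent group in 20. These 28 groups share the same 20 livers and are not independent, so nothing is read from the count. Ppargc1a read 7.17 in CoQ10 replicate 5, below the other CoQ10 livers, and 7.70 in probucol replicate 3. Angptl4 read 10.94 in untreated replicate 2 and 11.02 in wild-type replicate 1, the livers that were also lowest for Fgf21 in their groups. Pdk4 read 8.26 in wild-type replicate 3. Without that liver the untreated minus wild-type difference of Pdk4 was -1.61 (limma adjusted p = 0.266), in place of -1.38.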

How the results depend on the processing

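The call of Ppargc1a between CoQ10 and untreated mutants, and with it the count of 1 member called, went to 0 without background correction (limma adjusted p = 0.0572), with median scaling (0.366), with the authors' log2 values (0.0622), without a filter (0.122), with an array number block (0.0713), with only the 2 groups in the fit (0.0686), with groups named by the array name prefix (0.286), without untreated replicates 1 and 4, which earlier results set apart (0.08), and without the 2 youngest untreated mutants (0.315). The call held with an offset of 50 (0.0373) and with probes detected in all 20 arrays (0.0413). The cause of these changes was not tested. For CoQ10 against wild type the count of 1 went to 0 with median scaling (Bdh1 limma adjusted p = 0.999) and with only 2 groups in the fit (0.0507), and to 2 with probes detected in all 20 arrays (Ppargc1a 0.0438). Leaving out 1 liver at a time gave 0 to 1 members for CoQ10 against untreated mutants, 0 to 2 against wild type and 0 to 1 for probucol against wild type, and 1 to 3 companion genes for CoQ10 against untreated mutants. That companion count of 1 was 3 with an offset of 50, 0 with probes detected in all 20 arrays, and 2 without untreated replicates 1 and 4.

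Replicate numbers were not taken as pairs, since not every pair of same-numbered livers had r over 0.1. Over 30 such pairs r was -0.32 to 0.46, 17 were over 0.1, and 11 had their best match in their own number. With a replicate block the member count for CoQ10 against untreated mutants was 0 (Ppargc1a limma adjusted p = 0.0683), and Bdh1 against wild type stayed called (0.0488).

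Exchanging the probucol and untreated labels by the array name prefix gave 1 member called for CoQ10 against probucol, 0 companion genes for CoQ10 against untreated mutants and 6 for untreated mutants against wild type. It turned every sign between probucol and untreated mutants by construction, to -0.13 for Pdk4, 0.45 for Ppargc1a, 0.12 for Bdh1, 0.30 for Fgf21, 0.65 for Angptl4 and 0.33 for Ppara. It gave -0.23 for Ppargc1a in untreated mutants against wild type and 0.22 in probucol against wild type. For Angptl4 it gave 0.32 for CoQ10 against untreated mutants and -0.33 against probucol. Other signs that turned were near 0: Pdk4 was -0.015 for CoQ10 against wild type with the array number block and -0.19 to 0.15 with 1 liver left out. Pdk4 was -0.23 for probucol against untreated mutants without untreated replicates 1 and 4, and -0.23 to 0.55 with 1 liver left out. Ppara was 0.035 there without probucol replicates 1, 2 and 4 and 0.073 without the 2 youngest untreated mutants. For untreated mutants against wild type, leaving out 1 liver gave -0.41 to 0.11 for Ppara and -0.67 to 0.13 for Angptl4. Signal near background limits the second Bdh1 probe, detected in 14 of 20 livers.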
